A study of Mus musculus with 24 samples.

Results

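Cell cycle genes were followed across pineal glands and retinas of mice that lack or keep Neurod1, by night and by day. The genes were those whose single symbol in the platform annotation begins with the name of an MCM helicase subunit (Mcm2 to Mcm9), a cyclin of the A, B, D or E class, a cyclin-dependent kinase (Cdk), a Cdkn inhibitor, an E2f factor (E2f1 to E2f7), a Cdc protein, an Aurora kinase or Bub1. The name rule took 99 of the 18193 genes on the array, and it also took genes with no direct part in division, such as Cdc42 and its partners. Each gene was represented by its probe set with the highest mean signal over the 24 arrays, and 34 of the 99 had a single probe set. Ccnb1 had no probe set with a single symbol.

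RNA was hybridised to Affymetrix Mouse 430 2.0 arrays, 1 array for each pool of 6 pineal glands or 6 retinas, with 3 pools in each of 8 groups. The conditional knockout (cKO) mice were NeuroD1flox/flox with 1 Crx-cre transgene, and the controls carried the same floxed alleles without Cre. All were C57BL/6J mice of both genders, 2 months old, kept in cycles of 12 h light and 12 h dark. The groups were cKO and control pineal glands and cKO and control retinas, each taken at ZT20 (night, under dim red light) and at ZT6 (day). The Crx promoter is active in photoreceptors and pinealocytes, so other cells of both tissues keep Neurod1, and effects of the Cre transgene itself cannot be told apart from those of the deletion. The tissues carried their own markers: 8 of 8 pinealocyte markers lay above the array median in every pineal pool, and 8 of 8 rod markers in every retinal pool.

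Cyclins switch Cdks on, and Cdkn proteins hold them back. Active Cdks release E2f factors from the retinoblastoma protein, and E2f factors switch on genes of DNA replication, among them the MCM helicase that opens the double strand. The anaphase-promoting complex and the spindle checkpoint, to which Bub1b belongs, then time the separation of chromosomes. Adult photoreceptors and pinealocytes no longer divide, yet many of these genes are also read in resting neurons, where Cdk5 with its partners Cdk5r1 and Cdk5r2 acts outside division.

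Neurod1 itself was examined first, as quantile-normalised signal in array units, the scale of all signals below. In the pineal gland the cKO pools had 84.5, 36.7 and 33.9 at ZT6, against 4785, 4868 and 4668 in control pools, which is 1.77, 0.77 and 0.709% of the control mean. At ZT20 they had 28.6, 2001 and 864, against 3186, 3964 and 2978 in control pools, or 0.849, 59.3 and 25.6%. The day pools were thus all low, and at night only pool 1 was. Retinal cKO pools had 682, 599 and 277 at ZT6, against 7197, 7304 and 6422 in control pools, or 3.97 to 9.78%. At ZT20 they had 336, 3864 and 3525, against 7714, 7476 and 7856 in control pools, or 4.37, 50.3 and 45.9%. The libraries labelled cKO at ZT20, pools 2 and 3, therefore kept much of the Neurod1 signal in both tissues, and what their absence does to the calls that use them is given with those calls. Before normalisation the array medians of retinas spanned 107.8 to 183.1 and those of pineal glands 107.1 to 158.8.

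A gene was tested where its signal exceeded the median of all probe sets, 134, on at least 3 arrays of a fit, which kept 73 of the 99 genes for retinas, 80 for pineal glands and 82 across both. Differences are given on the log2(signal + 16) scale as mean ± SE from limma with 3 pools per group, and a gene is said to rise or fall where limma's Benjamini-Hochberg adjusted p was under 0.05. The labels call the pools biological replicates, so a p-value measures the spread between pools of tissue and not between single mice. In whole tissue, fewer cells of a type and less RNA per cell cannot be told apart.

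Of the 99 genes 17 were tested in neither tissue, among them several genes of mitosis. They were Aurka, Aurkb, Aurkc, Bub1, Ccna1, Ccnb1ip1, Ccnb2, Ccnb3, Cdc20, Cdc20b, Cdc42ep1, Cdc6, Cdk3, Cdkn2a, Cdkn3, E2f2 and E2f7. Among other genes of mitosis, Bub1b passed in both tissues, with 692 to 1009 units in control retinas and 592 to 788 in control pineal glands. Bub1, the checkpoint kinase, did not exceed 43.6 units on any array, and Cdc20, which activates the anaphase-promoting complex, did not exceed 78.7. Aurka, the kinase of spindle poles, had 131, 142 and 146 in cKO and 81.1, 95.0 and 126 in control pineal glands at ZT20, against 101, 119 and 92.8 in cKO and 75.2, 91.1 and 73.6 in control pineal glands at ZT6. All of these Aurka values lie near or under the array median, and the gene was not tested. The array files used here give no detection calls, so a low signal is not a proof of absence.

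The division markers Mki67 and Top2a were low as well. Mki67 had a median of 17.9 units over the 6 control retinal pools (4.43 to 39.1), against 162 over the 6 control pineal pools (121 to 183). Top2a, the topoisomerase of dividing cells, had medians of 17.1 (5.41 to 46.7) in the retina and 135 (111 to 184) in the pineal gland. Both genes were lower in every control retina than in any control gland. Rrm2, which makes deoxynucleotides, had medians of 117 in the retina and 717 in the pineal gland.

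**Figure D1:**
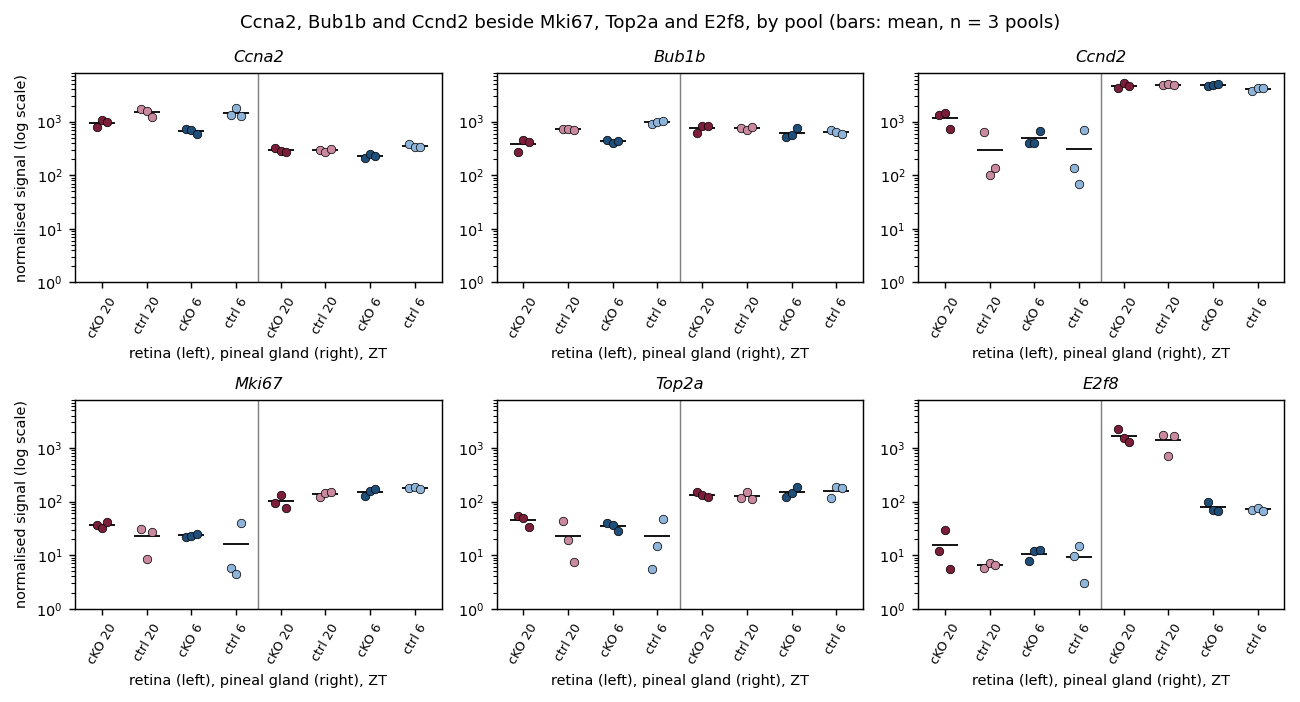
Normalised signal (array units, log axis) of Ccna2, Bub1b and Ccnd2 (top) and of Mki67, Top2a and E2f8 (bottom) in each pool of the 8 groups, retina left and pineal gland right, with group means as bars. Ccna2 and Bub1b were lower in cKO than in control retinas, Ccnd2 varied widely between retinal pools, Mki67 and Top2a stayed under 60 units in every retinal pool, and E2f8 was high in the pineal gland at ZT20.

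The control tissues differed in most cell cycle genes. Of 82 genes tested, 26 were higher and 35 lower in the retina, 74.4%, where 79.7% of all 12928 genes tested were called (37.2% higher and 42.4% lower), so the share lies near that of all genes. On the values as deposited the split was 13 higher and 41 lower, with the median of all genes at -0.27. Of the 82, 9 passed the filter on signal through the pineal gland alone and 2 through the retina alone, so these 11 were bound to differ. Signals below are the median and range of 6 control pools for each tissue, both times together.

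Ccnd2, a D-type cyclin that couples growth signals to Cdk4 and Cdk6, had a median of 136 (68.5 to 704) in control retinas and 4510 (3758 to 4966) in control pineal glands. E2f1, an activator of replication genes, had 56.6 (51.0 to 73.8) in control retinas against 936 (721 to 1579.8) in control pineal glands. E2f1 passed the filter through the pineal gland alone, so it was bound to differ between tissues. Cdkn1a, the inhibitor induced by Trp53, had 110 (93.4 to 153) in control retinas and 583 (380.4 to 768) in control pineal glands. The log2 differences, retina minus pineal gland, were -4.35 ± 0.39 for Ccnd2, -3.77 ± 0.09 for E2f1 and -2.10 ± 0.12 for Cdkn1a.

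Cyclins were split, 3 of 6 tested higher and 3 lower in the retina. Of 5 cell cycle Cdks 1 was higher and 4 lower, and of 5 E2f factors 2 were higher and 2 lower. Among all genes 37.2% were higher and 42.4% lower. Ccnd1, a D-type cyclin too, was higher, with a median of 1203 (1082 to 1644) in control retinas and 776 (693 to 866) in control pineal glands (0.73 ± 0.09). The kinases Cdk6 (-1.27 ± 0.11), Cdk1 (-1.12 ± 0.14), Cdk2 (-1.05 ± 0.12) and Cdk4 (-0.61 ± 0.06), the cyclin Ccne2 (-1.08 ± 0.08), the phosphatase Cdc25a (-1.07 ± 0.10), the inhibitor Cdkn1c (-1.05 ± 0.17) and the repressor E2f6 (-1.08 ± 0.08) fell below their pineal levels in the limma fit. Of the 8 MCM genes 6 were lower in the retina, Mcm3 (-1.01 ± 0.15), Mcm9 (-0.90 ± 0.11) and Mcm4 (-0.84 ± 0.09) most, and Mcm7 (0.07) and Mcm5 (-0.20) were not called. Cdk1, Cdk2 and Mcm3 passed the filter through the pineal gland alone. Of 17 tested replication factors outside the name rule 8 were higher and 5 lower in the retina, with a median of 0.22.

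Ccna2 ran the other way from Ccnd2. This cyclin of replication and early mitosis had a median of 1444 (1243 to 1818) in control retinas and 322 (269.9 to 389.6) in control pineal glands, a difference of 2.15 ± 0.10. Cdc7, the kinase that fires replication origins, had 3040 (2399 to 3736) in control retinas and 889 (849 to 1152) in control pineal glands, a difference of 1.67 ± 0.09. Neither gene's pools overlapped between tissues, although Mki67 and Top2a were at 47 units or less in those retinas. The inhibitor Cdkn2c was 1.11 ± 0.09 higher, and the Cdk1-activating phosphatase Cdc25c 2.77 ± 0.16 higher. Cdc25c was measured through a probe set marked as cross-hybridising (suffix _x_at) and passed the filter through the retina alone.

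Of 20 tested Cdks outside the cycle and Cdk partners, 9 were higher and 5 lower in the retina, where 37.2% of all genes were higher and 42.4% lower. The lower ones were Cdk5rap2 (-0.58 ± 0.15), Cdk12 (-0.46 ± 0.13), Cdk2ap1 (-0.29 ± 0.03), Cdk5rap3 (-0.24 ± 0.09) and Cdk2ap2 (-0.22 ± 0.06), and Cdk18 (2.58 ± 0.16), Cdk14 and the partners of Cdk5 were higher by the most. Cdk18 passed the filter through the retina alone and Cdk5rap2 through the pineal gland alone. Cdk5r2 had a median of 5175 (4822 to 5636) in control retinas and 1412 (1303 to 1500.1) in control pineal glands, and Cdk5r1 1963 against 678. The differences were 1.87 ± 0.05 and 1.51 ± 0.13. Cdk5 itself was at about the same signal in both, 1326 (1209.6 to 1602) in control retinas and 1247 (1140.0 to 1485) in control glands, and was not called. Cdk14, a kinase that works with cyclin Y, was 2.37 ± 0.12 higher in the retina. Cdkn1b (0.12) and E2f3 (0.06) were not called between tissues.

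**Figure D2:**
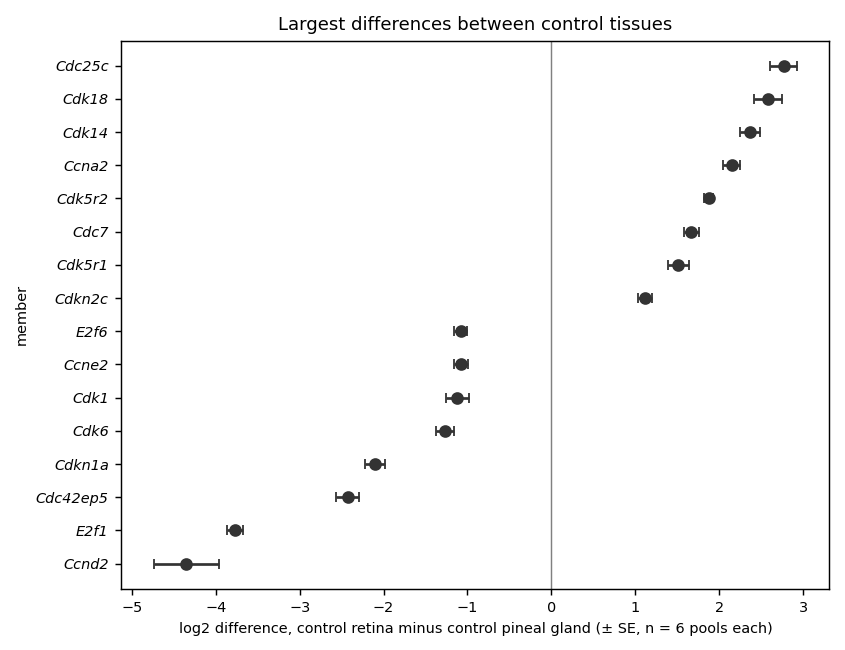
Log2 difference of the 16 genes with the largest differences, control retina minus control pineal gland (x axis, mean ± SE from limma, 6 pools per tissue). Cdc25c, Cdk18, Cdk14 and Ccna2 lie farthest to the right and Ccnd2, E2f1, Cdc42ep5 and Cdkn1a farthest to the left. Of these, Cdc25c and Cdk18 passed the filter on signal through the retina alone, and E2f1 and Cdc42ep5 through the pineal gland alone.

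Night and day were compared next in the pineal gland, which makes melatonin at night under the control of noradrenaline and cyclic AMP. In cKO glands 17 of 80 genes passed at ZT20 against ZT6, 9 higher and 8 lower, 21.2%, where 18.1% of all 11984 genes tested were called (8.4% higher and 9.74% lower). In control glands 19 passed, 9 higher and 10 lower, 23.8%, where 25.8% of all genes were called (12.3% higher and 13.5% lower). The shares are near those of all genes in either genotype. On the values as deposited the calls were 2 higher and 6 lower in cKO, with the median of all genes at -0.15, and 6 higher and 2 lower in control. After median centring the control calls were 8 higher and 4 lower.

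Both comparisons called 11 genes in the same direction, 64.7% of the cKO calls and 57.9% of the control calls. The matching shares over all genes were not computed, so this overlap is not read as particular to cell cycle genes. The 11 were E2f1, E2f3, Cdkn1a, Cdk19, Cdc42ep2 and Cdc42ep5, higher at night, and Cdk6, Cdk10, Cdk8, Cdc25b and E2f6, lower at night. The genotypes do not share samples here. The difference between genotypes in the night change was tested as an interaction, and limma called 0 of the 80 genes and 0 of all 11984, with 9 of the 80 and 1159 of all genes at an unadjusted p under 0.05. A night change called in 1 genotype alone is thus not shown to differ between them.

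The E2f activators rose at night. In cKO glands E2f1 (chr2:154559400-154569892, GRCm38.p6) had 1337, 1526 and 1391 at ZT20, against 859, 844 and 909.6 at ZT6. In control glands it had 1327, 1059 and 1579.8 at ZT20, against 721, 795 and 813 at ZT6. Every night pool lay above every day pool, with differences of 0.69 ± 0.12 in cKO (limma adjusted p = 0.00115) and 0.74 ± 0.12 in control (adjusted p = 0.00058). A second E2f1 probe set gave 0.45 and 0.56.

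E2f3 (chr13:29906575-29986064), a further activator, had 3518, 3413 and 3401 in cKO glands at ZT20, against 2201, 2322 and 2456 at ZT6. In control glands the values were 3424, 2847 and 3426 at ZT20, against 2026, 2204 and 2341 at ZT6. The pools again did not overlap, and the rise was 0.56 ± 0.08 in either genotype (limma adjusted p = 0.000294 in cKO and 0.000304 in control). A dimmer second probe set gave 0.11 and 0.51, and the cKO call was lost with the mean of both (0.34, adjusted p = 0.0748). The repressor E2f5 had 763, 603 and 734 at ZT20 against 500.2, 513 and 499 at ZT6 in cKO glands, a rise of 0.45 ± 0.10 (adjusted p = 0.00608) that was lost with the mean of its probe sets (0.23, adjusted p = 0.19).

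E2f6, a repressor that does not bind the retinoblastoma protein, fell. In cKO glands it had 1625, 1688 and 1762 at ZT20, against 2155, 2173 and 2014 at ZT6. In control glands it had 1586, 1727 and 1615 at ZT20, against 2636, 2588 and 2312 at ZT6. The falls of -0.32 ± 0.07 (limma adjusted p = 0.00856) in cKO and -0.61 ± 0.07 (adjusted p = 8.4e-05) in control were not seen in a second, dimmer probe set (0.02 and -0.04), so the probe sets disagree.

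Cdkn1a rose at night, by 0.38 ± 0.11 in cKO and 0.78 ± 0.11 in control. It had 730.0, 730.5 and 586 in cKO glands at ZT20, against 530.4, 545 and 477 at ZT6. In control glands it had 710.4, 714 and 768 at ZT20, against 425, 456 and 380.4 at ZT6. Night pools lay above day pools in both, but the cKO rise did not pass without cKO ZT20 pools 2 and 3 (0.49, adjusted p = 0.0514). The inhibitors Cdkn1b (0.01 in cKO, 0.06 in control), Cdkn1c (0.07 and 0.36) and Cdkn2c (0.13 and -0.08) were not called.

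Cdk6, the kinase partner of D-type cyclins, fell by 0.86 ± 0.16 in cKO and 1.01 ± 0.16 in control glands (limma adjusted p = 0.00222 and 0.000588). Its signals were 346, 380.5 and 504 at ZT20 against 779.6, 733 and 732 at ZT6 in cKO, and 379, 598 and 396 at ZT20 against 811, 956 and 998 at ZT6 in control. No night pool reached a day pool, and a second probe set gave -0.95 and -0.88. Cdk4, its close relative, fell in control glands (-0.33 ± 0.08) and was not called in cKO (-0.18), while Cdk1 and Cdk2 were not called in either.

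Of 19 tested Cdks outside the cycle and Cdk partners, 1 rose and 2 fell in cKO, and 1 rose and 4 fell in control. Of all genes 8.4% rose and 9.74% fell in cKO, and 12.3% rose and 13.5% fell in control. Cdk10 had 663, 614 and 727 at ZT20 against 1123, 1084 and 982 at ZT6 in cKO glands, and 642, 805 and 722 at ZT20 against 1046, 1167 and 889.9 at ZT6 in control glands. Its falls were -0.66 ± 0.11 and -0.50 ± 0.11, with no overlap. The paralogous kinases of the Mediator complex moved apart: Cdk19 rose (0.47 ± 0.10 in cKO, 0.53 ± 0.10 in control) and Cdk8 fell (-0.20 ± 0.06 and -0.26 ± 0.06). Cdk2ap2 (-0.31 ± 0.07) and Cdk5rap3 (-0.27 ± 0.09) fell in control glands.

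Phosphatases that switch Cdks on divided as well. Cdc25b had 473, 452 and 480.5 at ZT20 against 711, 688 and 606 at ZT6 in cKO glands, and 502, 634 and 527 at ZT20 against 844, 1001 and 685 at ZT6 in control glands. It fell by 0.50 ± 0.13 in cKO and 0.58 ± 0.13 in control, and without cKO ZT20 pools 2 and 3 the cKO fall did not pass (-0.48, adjusted p = 0.141). Cdc25a rose in control glands, with 424, 379.7 and 435 at ZT20 against 259.6, 322 and 283 at ZT6 (0.50 ± 0.12, limma adjusted p = 0.00632). Its cKO pools overlapped, with 405, 457 and 427 at ZT20 and 349, 395 and 426 at ZT6.

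The MCM genes that passed were lower at night. In cKO glands 3 of 8 MCM genes fell, Mcm2 (-0.48 ± 0.12), Mcm6 (-0.48 ± 0.13) and Mcm9 (-0.36 ± 0.09), where 9.74% of all genes fell. In control glands 1 of 8 did, Mcm7 (-0.37 ± 0.13), where 13.5% of all genes fell. Mcm2 had 317, 362 and 378 at ZT20 against 513, 479 and 496 at ZT6 in cKO glands, and 301, 402 and 392 at ZT20 against 402, 374 and 422 at ZT6 in control glands, where it was not called (-0.13). The falls of Mcm6 and Mcm9 did not pass without cKO ZT20 pools 2 and 3 (-0.56 and -0.36) or with the mean of each gene's probe sets (-0.23 and -0.02), and that of Mcm7 was lost when any of 5 single pools was left out (adjusted p up to 0.19). Cdc7 rose in cKO glands (0.53 ± 0.12), with 1134, 858 and 1147 at ZT20 against 696, 776 and 670.5 at ZT6.

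Of 10 tested genes around Cdc42, a small GTPase of cell shape, 3 of its effectors rose in each genotype, where 8.4% of all genes rose in cKO and 12.3% in control, 7 were not called and 0 fell. Cdc42ep2 had 317, 307 and 296 at ZT20 against 239, 231 and 189.9 at ZT6 in cKO glands, and 318, 342 and 428 at ZT20 against 169, 190.3 and 163 at ZT6 in control glands. The rise was 0.46 ± 0.14 in cKO (limma adjusted p = 0.0306), not passing without pools 2 and 3 (0.50, adjusted p = 0.15), and 0.99 ± 0.14 in control (adjusted p = 0.000204). Cdc42ep5 rose in both (0.56 ± 0.15 and 0.63 ± 0.15). Cdc42ep3 (0.33 ± 0.10) rose in cKO and Cdc42ep4 (0.33 ± 0.07) in control, while Cdc42 itself was not called (-0.03 and 0.03). The other control calls were Ccnd2 (0.24 ± 0.07) and the anaphase-promoting complex subunit Cdc26 (-0.38 ± 0.09).

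**Figure D3:**
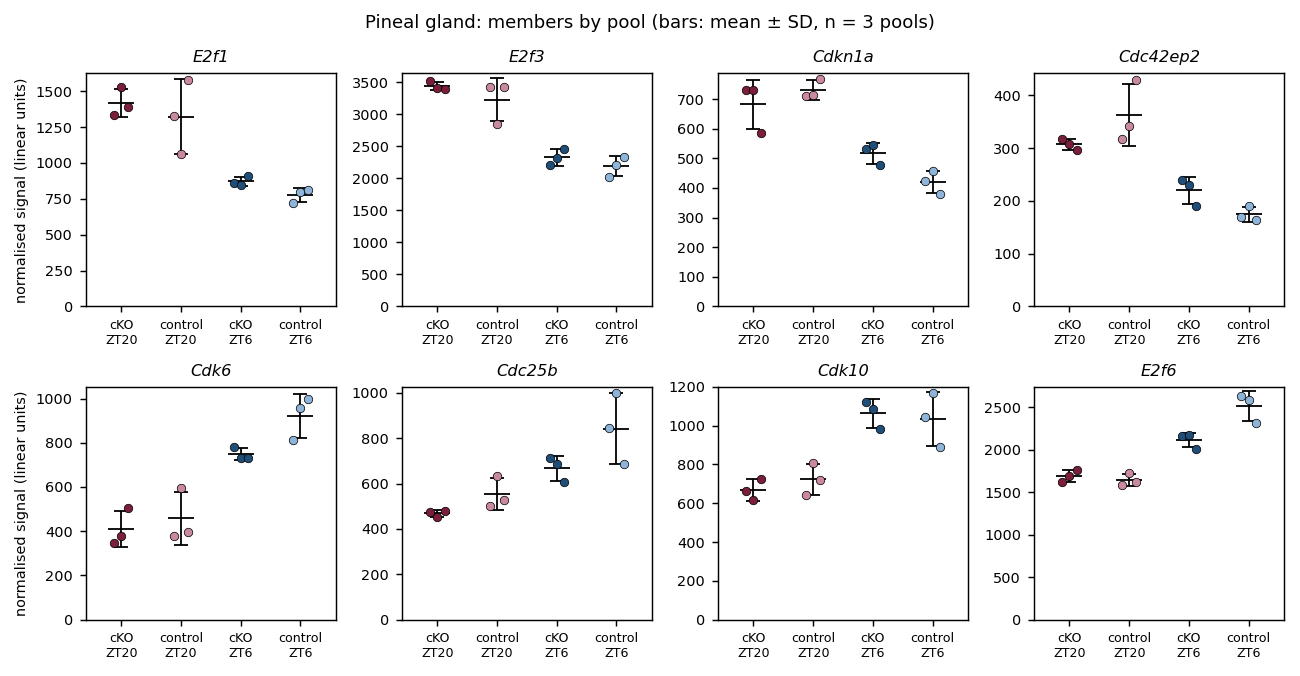
Normalised signal (array units, y axis from 0) of 8 genes in each pineal pool, with mean ± SD of 3 pools, for cKO ZT20, control ZT20, cKO ZT6 and control ZT6. E2f1, E2f3, Cdkn1a and Cdc42ep2 lie higher at ZT20 and Cdk6, Cdc25b, Cdk10 and E2f6 lower, without overlap in either genotype.

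Marker lists of other cells also held night changes in these glands. Of 5 tested rod markers 3 fell in each genotype, Sag, Pde6b and Prph2, of which Sag and Pde6b are known to be expressed by pinealocytes too. The rod gene Cnga1 was not tested and had 2.18, 36.9 and 17.6 at ZT20 and 2.25, 1.62 and 177 at ZT6 in cKO glands, and 31.9, 30.0 and 1.72 at ZT20 and 1.92, 49.9 and 197 at ZT6 in control glands. The rod list had summed signals of 11916 to 12493 at ZT20 against 14964 to 19051 at ZT6 in cKO and 11765 to 12525 against 14835 to 19793 in control. In control glands 2 of 6 neutrophil and marrow markers fell (sums of 1942 to 6343 at ZT20 and 5835 to 12612 at ZT6), 2 of 3 erythroid markers fell (6342 to 8952 at ZT20, 8427 to 10726 at ZT6), and 4 of 9 endothelial and mural markers rose (16119 to 18366 at ZT20, 13721 to 15272 at ZT6). In cKO glands 0 of 6, 0 of 3 and 0 of 9 of these were called. Among further cKO calls, each of the following genes was the only one of its list to pass. Of 4 tested pre-B markers Igll1 fell (-1.56 ± 0.34), with a list median of 0.003. Of 7 meningeal markers Slc22a6 rose (1.02 ± 0.22, list median -0.11), and of 10 macrophage markers Lyz2 (0.36 ± 0.09, list median 0.05). Cebpd rose among 5 markers of reactive glia (0.46 ± 0.15, list median 0.29). Abca8a rose among 8 markers of Müller glia (0.40 ± 0.13, list median -0.002). Control glands had 1 fall among pre-B markers, 1 rise each among meningeal, macrophage and reactive glia markers, and 2 among Müller glia markers. The log2 ratio of 3′ to 5′ Actb probe sets, a sign of RNA quality, averaged 1.40 in cKO and 1.19 in control glands at ZT20, and 1.16 in cKO and 1.19 in control glands at ZT6. Each cKO pool at ZT20, at 1.34 or more, lay above every other pineal pool. The part of these cells and of the RNA in the changes above was not tested. Without ZT6 pool 3 of both genotypes, the pools with the most rod transducin signal, a comparison added after the data had been seen, E2f1, E2f3, Cdk6, Cdk10 and E2f6 still passed in both genotypes.

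Without cKO ZT20 pools 2 and 3, 9 of the 17 cKO calls passed: E2f1 (0.61, limma adjusted p = 0.0468), E2f3 (0.59), E2f5 (0.58), Cdc7 (0.66), Cdc42ep5 (0.86), E2f6 (-0.38), Mcm2 (-0.62), Cdk6 (-1.08) and Cdk10 (-0.67). Besides the genes named above, Cdk19 (0.51, adjusted p = 0.0605), Cdk8 (-0.19, adjusted p = 0.233) and Cdc42ep3 (0.36, adjusted p = 0.111) did not. That comparison has a single night pool, whose spread is taken from the other groups. On the values as deposited the night calls of E2f5, Cdkn1a, Cdc7, Cdk19, Cdk8, Mcm9, Cdc42ep2, Cdc42ep3 and Cdc42ep5 ended in cKO glands. In control glands those of Ccnd2, Cdk4, Cdk8, Cdk10, Cdk2ap2, Cdk5rap3, Cdc25a, Cdc25b, Cdc26, Mcm7 and Cdc42ep4 did.

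RefSeq promoters (GRCm38.p6) were read for the genes that moved, since E2f factors were among them. Windows of 250 bases before the start were found for 82 of the 99 genes, 98 windows in all, and 53 of the 98 overlapped the annotated span of their own gene. An E2F motif (TTTCGCGC, TTTGGCGC or TTTCCCGC on either strand) was in 10 of 98 windows, 10.2%, against 504 of 32851 windows of all genes, 1.53%. Of the 25 genes called between night and day in either genotype 22 had a window, and 4 carried the motif: E2f3 and Cdc25a, which rose, and Mcm6 and Mcm7, which fell. Of the other 74 genes 60 had a window and 6 the motif. Their 4 windows are shown 5′ to 3′ with the motif in capitals, because genes with the same letters went both up and down; they were chosen after the values had been seen. E2f3's is at chr13:29986064-29986313 on the minus strand, Cdc25a's at chr9:109875329-109875578 on the plus strand, Mcm6's at chr1:128359706-128359955 and Mcm7's at chr5:138171884-138172133 on the minus strand.
E2f3: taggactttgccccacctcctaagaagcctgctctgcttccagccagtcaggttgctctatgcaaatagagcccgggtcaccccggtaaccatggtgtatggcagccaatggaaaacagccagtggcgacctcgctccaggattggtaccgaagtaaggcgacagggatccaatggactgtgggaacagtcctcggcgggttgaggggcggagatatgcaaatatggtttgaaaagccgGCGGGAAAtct
Cdc25a: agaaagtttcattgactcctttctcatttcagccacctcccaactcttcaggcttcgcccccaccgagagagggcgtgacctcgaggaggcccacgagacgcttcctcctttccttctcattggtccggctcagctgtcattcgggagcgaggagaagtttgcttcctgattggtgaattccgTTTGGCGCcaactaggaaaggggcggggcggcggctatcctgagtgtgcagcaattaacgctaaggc
Mcm6: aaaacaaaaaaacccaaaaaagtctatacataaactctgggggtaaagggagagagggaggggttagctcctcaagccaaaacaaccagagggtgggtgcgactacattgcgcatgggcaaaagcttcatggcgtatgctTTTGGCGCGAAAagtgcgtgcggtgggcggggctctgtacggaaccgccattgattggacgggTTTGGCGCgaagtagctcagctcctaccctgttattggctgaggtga
Mcm7: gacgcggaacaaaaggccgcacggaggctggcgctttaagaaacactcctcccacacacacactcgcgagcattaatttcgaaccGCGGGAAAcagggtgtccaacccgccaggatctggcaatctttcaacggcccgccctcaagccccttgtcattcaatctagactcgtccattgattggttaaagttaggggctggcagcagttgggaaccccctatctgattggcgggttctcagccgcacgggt

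The match lay 11 bases before the start in E2f3, 67 in Cdc25a and 165 in Mcm7. Mcm6 had 3 matches, at 110, 106 and 47 bases, of which those at 110 and 106 overlap on opposite strands. The windows of E2f3, Cdc25a and Mcm7 overlap the span of longer transcripts of the same gene. A cyclic AMP response element (TGACGTCA) was in 4.08% of these windows against 1.55% of all, and in 0 of the 22 genes with a window that changed at night. Its shorter core TGACG, which every full element contains, was in 25.5% against 17.8%, the CHR element TTTGAA in 18.4% against 16%, and the E-box letters CAGATG or CAGCTG, which bHLH factors such as Neurod1 bind, in 15.3% against 25.5%. A match of letters is a description and not a binding site.

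Genes around the cycle that are not in the list above were counted in 5 lists, of which 88 of 92 genes were on the array. Other scalings, other probe sets and leaving out single pools were not examined for these lists. E2f8, an atypical E2f repressor of replication genes, had 2237, 1551 and 1307 at ZT20 against 97.5, 71.0 and 67.5 at ZT6 in cKO glands. In control glands it had 1743, 707 and 1684 at ZT20, against 70.4, 75.3 and 67.6 at ZT6. Its rise of 4.16 ± 0.28 and 3.89 ± 0.28 (limma adjusted p = 4.87e-07 and 7.19e-07) was larger than any night change of the 80 genes tested above. E2f8 passed the filter on signal through night pools alone, as no ZT6 pool exceeded 97.5 units, which limits its calls. In the retina E2f8 stayed at or under 29.7 units in all 12 pools.

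Among 16 tested replication factors 2 fell in cKO glands, where 9.74% of all genes fell, and 5 in control glands, where 13.5% did, with 0 rises. Gins1, of the replicative helicase, fell by 0.65 ± 0.15 in cKO and 0.47 ± 0.15 in control, and the origin subunit Orc5 by 0.49 ± 0.12 and 0.59 ± 0.12. Of 12 division markers 1 rose and 2 fell in cKO, and 1 rose and 3 fell in control, where 8.4% and 12.3% of all genes rose. The chromatin protein Hmgb2 fell (-0.88 ± 0.13 and -1.06 ± 0.13), from pools of 1532, 1442 and 1699 at ZT20 and 3150.4, 2495 and 2990.0 at ZT6 in cKO. Pcna, the sliding clamp, rose slightly (0.31 ± 0.07 and 0.22 ± 0.07).

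Of 12 tested mitosis genes outside the name rule 1 rose and 1 fell in cKO, and 2 rose and 2 fell in control glands. For this and the next lists, 8.4% of all genes rose and 9.74% fell in cKO, and 12.3% and 13.5% in control. Mad2l1 of the spindle checkpoint fell (-0.66 ± 0.12 and -0.69 ± 0.12), and the checkpoint kinase Ttk rose (1.73 ± 0.46 and 1.48 ± 0.46) with 159, 103 and 156 at ZT20 against 24.8, 40.5 and 26.4 at ZT6 in cKO glands. In control glands Ttk had 123, 27.9 and 236 at ZT20 against 22.5, 20.1 and 35.3 at ZT6, so that these pools overlapped. Ttk passed the filter on signal through night pools alone, as no ZT6 pool exceeded 40.5 units, which limits its calls. Of 12 tested genes around the retinoblastoma protein 3 rose and 1 fell in cKO, and 2 rose and 1 fell in control, with Rbl1 at 0.37 ± 0.11 in cKO and E2f8 among the rises of both. Of 18 tested checkpoint genes 3 rose and 1 fell in cKO, and 1 rose and 4 fell in control. Mdm4 (0.42 ± 0.13) was among the rises in cKO, and Zmat3 (0.51 ± 0.10) was the rise in control. The checkpoint kinase Atr fell by 0.49 ± 0.11 in both genotypes, and Sesn1 (-0.40 ± 0.12), Trp53inp1 (-0.36 ± 0.09) and Gadd45g (-0.33 ± 0.10) fell in control. Without cKO ZT20 pools 2 and 3, 7 of the 15 cKO calls of these lists passed: E2f8 (4.59), Gins1 (-0.86), Hmgb2 (-0.90), Mad2l1 (-0.80), Atr (-0.62), Fbxw7 (-0.42) and Pcna (0.43). Orc5 (-0.50, adjusted p = 0.063), Rbl1 (0.52, adjusted p = 0.0551), Mdm4 (0.36, adjusted p = 0.2) and 4 other genes were not called then, and Ttk was not tested.

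Few of these genes were called between cKO and control pineal glands. At ZT20 limma called 0 of 80, and 0 of all 11984 genes tested, with 4 of the 80 and 953 of all at an unadjusted p under 0.05. In that cKO group pools 2 and 3 kept 59.3 and 25.6% of the control Neurod1 mean, so the count of 0 does not describe a full loss of Neurod1. At ZT6 limma called 2 of 80, both lower, 2.5%, where 1.83% of all genes were called and 1.2% were lower. With pools paired by their number, which same-numbered pools bore out in this comparison alone, 4 genes passed: Ccna2, Cdc26, Cdc37l1 (-0.24 ± 0.06) and Ccnd2 (0.23 ± 0.06). After median centring 33 of 80 were higher and 1 lower, with the median of all genes at 0.25, so the balance of directions rests on the scaling.

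Ccna2 had 212, 245 and 232 in cKO glands at ZT6, against 389.6, 339 and 334 in control glands. All cKO pools were lower (-0.59 ± 0.12, limma adjusted p = 0.0278), but a second probe set gave -0.16, and the call was lost when any of 5 of the 6 pools was left out (adjusted p up to 0.16). Cdc26 had 1560.5, 1707 and 1649.6 in cKO and 2199, 2201 and 2253 in control glands at ZT6 (-0.43 ± 0.09, adjusted p = 0.0325). That call was lost without any single pool, and the other 3 probe sets of Cdc26 were higher in cKO (0.10 to 0.43), so its direction is not settled. Without ZT6 pool 3 of both genotypes 0 of the 80 were called. Of the 5 lists around the cycle 0 genes were called at either time.

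E2f1 (0.16 at ZT6 and 0.12 at ZT20), E2f3 (0.09 and 0.10), Cdkn1a (0.29 and -0.10), Ccnd1 (0.01 and -0.22), Ccnd2 (0.23 and -0.06), Cdk4 (-0.18 and -0.03), Cdk6 (-0.29 and -0.14) and Mcm2 (0.30 and -0.04) were not called between cKO and control glands without pairing. Markers of other cells differed between these glands at ZT6. Neutrophil and marrow markers summed to 2785 to 3105 in cKO and 5835 to 12612 in control pools (2 of 6 tested lower), and microglia markers to 12570 to 15963 in cKO and 17919 to 18188 in control (2 of 10 lower). Erythroid markers summed to 5421 to 7476 in cKO and 8427 to 10726 in control (1 of 3 lower). Choroid plexus markers summed to 34631 to 37419 in cKO and 27583 to 30394 in control, with 0 of 8 called. Of 4 tested pre-B markers 1 was higher in cKO glands, Igll1 (1.97 ± 0.34). Of 9 endothelial and mural markers 1 was higher, Cdh5 (0.65 ± 0.14), and of 7 meningeal markers 1 was lower, Slc22a6 (-1.04 ± 0.22). The medians of these lists were 0.12, 0.10 and -0.11, and their sums overlapped between genotypes. Those sums were 1917 to 2472 in cKO and 2184 to 2342 in control for pre-B markers. They were 12920 to 15685 and 13721 to 15272 for endothelial and mural markers, and 22102 to 25992 and 25087 to 27781 for meningeal markers. The part of these cells was not tested.

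In the retina Bub1b, Ccna2, Cdc7 and Cdc25c were among the 8 genes lower in cKO mice by day, and Bub1b and Ccna2 were lower also at night. Of 73 genes tested at ZT6, 4 were higher and 8 lower in cKO, 16.4%, where 16.6% of all 11748 genes tested were called, 9.47% higher and 7.12% lower. At ZT20, 2 were higher and 5 lower, 9.59%, where 10.3% of all genes were called (5.65% higher and 4.68% lower). The share is near that of all genes at either time. Bub1b, Ccna2 and E2f6 were called at both times in the same direction, 42.9% of the ZT20 calls and 25% of those at ZT6. The matching shares over all genes were not computed here either. On the values as deposited the ZT6 split was 18 higher and 4 lower, with the median of all genes at 0.29, and the ZT20 split 2 higher and 1 lower.

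Bub1b (chr2:118598202-118641592), the spindle checkpoint protein BubR1, had 463, 394 and 441 in cKO retinas at ZT6, against 889, 996 and 1009 in control retinas. At ZT20 it had 266, 461 and 421 in cKO retinas, against 721, 743 and 692 in control retinas. The pools did not overlap at either time (-1.13 ± 0.16, limma adjusted p = 0.000549, and -0.92 ± 0.16, adjusted p = 0.00317). The other 2 probe sets were lower too (-0.96 and -1.21 at ZT6, -0.72 and -1.46 at ZT20). Without cKO pools 2 and 3 the ZT20 fall was -1.38 (adjusted p = 0.000268).

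Ccna2 (chr3:36564865-36573038) had 732, 700.2 and 599 in cKO retinas at ZT6, against 1306, 1818 and 1278 in control retinas. At ZT20 it had 782, 1060.3 and 988 in cKO, against 1729, 1582 and 1243 in control. It fell by 1.08 ± 0.17 (limma adjusted p = 0.000819) and 0.68 ± 0.17 (adjusted p = 0.0201), without overlap, and a second probe set gave -1.02 and -0.65. Without cKO pools 2 and 3 the ZT20 fall was -0.93 (adjusted p = 0.027), and on the values as deposited it did not pass (-0.54, adjusted p = 0.113).

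Cdc7 (chr5:106964315-106984440) had 2204, 2045 and 1978 in cKO retinas at ZT6, against 3416, 3736 and 3028 in control retinas, a fall of 0.70 ± 0.12 (limma adjusted p = 0.00141). At ZT20 its pools overlapped, with 2160.5, 2782 and 2538 in cKO and 2914, 3052 and 2399 in control, and it was not called (-0.16). Cdc25c had 87.4, 74.2 and 93.6 in cKO against 213, 181 and 172 in control at ZT6 (-1.02 ± 0.18, adjusted p = 0.00253), and a second probe set gave -0.98. On the values as deposited this fall did not pass (-0.71, adjusted p = 0.0583). At ZT20 the ranges overlapped, with 137, 127 and 175 in cKO and 210.0, 140.5 and 177 in control. Of the ZT20 cKO pools, 2 and 3 kept 50.3 and 45.9% of the control Neurod1 mean. Pool 1, at 4.37%, lay below every control pool for Cdc7. For Cdc25c pools 1 and 2 (137 and 127) both did, pool 2 being the lower. The part of the kept Neurod1 in these values was not tested. The genotype by time interaction called 0 of 73 genes and 0 of all 11748, with 5 and 947 at an unadjusted p under 0.05, so a difference between ZT6 and ZT20 was not shown.

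The helicase genes Mcm8 and Mcm2 fell at ZT20. Mcm8, which works in the repair of breaks, had 182, 146 and 174 in cKO against 268, 250.2 and 256 in control (-0.59 ± 0.15, limma adjusted p = 0.0246). Mcm2 had 172, 163 and 147 in cKO against 285, 204 and 295 in control (-0.64 ± 0.17, adjusted p = 0.0285). Each control pool lay above each cKO pool, but neither passed without cKO pools 2 and 3 (-0.47 and -0.54, both adjusted p = 0.24) or on the values as deposited (-0.37 and -0.42). The other 5 tested MCM genes were not called, Mcm7 and Mcm5 being at -0.16 and 0.22. At ZT6 Mcm2 was at -0.33 and 0 of 7 MCM genes passed.

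E2f6 rose in the cKO retina, the reverse of its fall at night in the gland. It had 1633, 2052 and 2051 in cKO retinas at ZT6 against 1106, 1027 and 909.6 in control, and 2072, 1813 and 2478 in cKO at ZT20 against 963, 929 and 808 in control. Pools did not overlap, and the rises were 0.90 ± 0.13 (limma adjusted p = 0.00066) and 1.21 ± 0.13 (adjusted p = 8.52e-05). Without cKO pools 2 and 3 the ZT20 rise was 1.19 (adjusted p = 0.00138), and the second probe set, which did not follow the night fall, gave 0.90 and 0.84 here.

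Cdkn1a had 249, 154 and 215 in cKO retinas at ZT20 against 105, 101 and 144 in control, a rise of 0.73 ± 0.22 (limma adjusted p = 0.0472). At ZT6 it had 167, 176 and 217 against 153, 93.4 and 115, and did not pass (0.59, adjusted p = 0.081). The ZT20 call was lost without control pool 1 or 2 or cKO pool 1 or 3 (adjusted p up to 0.23) and without cKO pools 2 and 3 together (1.01, adjusted p = 0.0632). Cdkn1b (0.10 and 0.09), Cdkn1c (0.26 and -0.19) and Cdkn2c (-0.07 and -0.23) were not called at ZT6 or ZT20.

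Ccnd2 varied widely between retinal pools of the same group. It had 399, 402 and 680.0 in cKO retinas at ZT6 and 134, 68.5 and 704 in control. At ZT20 it had 1358, 1438 and 736 in cKO and 647, 101 and 138 in control. At ZT6 the pools overlapped, and at ZT20 they did not, yet the differences of 1.24 and 2.33 did not pass (adjusted p = 0.25 and 0.051). The choroid plexus marker Folr1 was at 448 to 1160.2 in cKO retinas and 134 to 715 in control retinas. In control retinas pool 3 at ZT6 and pool 1 at ZT20 stood high in Ccnd2, and the same pools had the highest control signals of Folr1 (655 and 715, with 134 to 274 in the other 4). The part of other tissue in the Ccnd2 signal was not tested. The 6 other Ccnd2 probe sets were also higher in cKO at ZT6 (0.48 to 0.94) and ZT20 (1.16 to 1.63).

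Genes of other roles made up the remaining calls at ZT6. Cdc42ep3 fell (-0.91 ± 0.15, limma adjusted p = 0.00144), with 2239.7, 1623 and 1659.5 in cKO against 3081, 3403 and 3839 in control. Cdk20 (-0.50 ± 0.14), E2f5 (-0.39 ± 0.12) and Cdc37l1 (-0.36 ± 0.08), a relative of an Hsp90 cochaperone, fell, and Ccnd3 (0.51 ± 0.14), Cdk14 (0.37 ± 0.11) and Cdc42 (0.22 ± 0.06) rose. Cdk20, E2f5, Ccnd3, Cdk14 and Cdc42 were each lost when 1 of 3 to 6 single pools was left out (adjusted p up to 0.14). The remaining call at ZT20, Cdk2ap2 (-0.43 ± 0.10), did not pass without cKO pools 2 and 3 (-0.47, adjusted p = 0.0547), and with the mean of its probe sets it was at -0.03. On the values as deposited the ZT6 calls of Cdk20 (-0.15), E2f5 (-0.05) and Cdc37l1 (-0.18) ended.

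**Figure D4:**
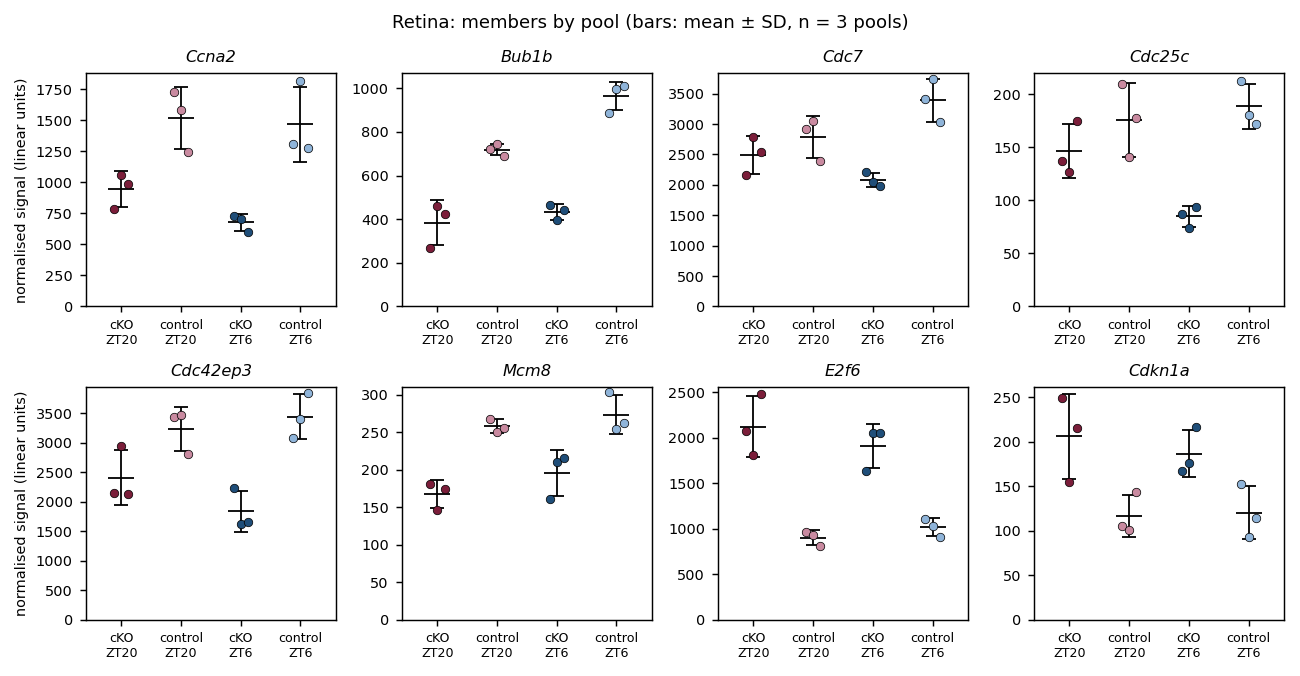
Normalised signal (array units, y axis from 0) of 8 genes in each retinal pool, with mean ± SD of 3 pools, for cKO ZT20, control ZT20, cKO ZT6 and control ZT6. Ccna2 and Bub1b lie lower in cKO retinas and E2f6 higher at both times, while Cdc7 and Cdc25c are apart at ZT6 and overlap at ZT20. At ZT20 cKO pools 2 and 3 kept 50.3 and 45.9% of the control Neurod1 mean.

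Some replication genes outside the name rule also fell in cKO retinas. Of 16 tested, 6 were lower at ZT6, where 7.12% of all genes were lower, and 3 at ZT20, where 4.68% were, and 0 higher. These genes were not examined on the values as deposited or after median centring. How far their direction rests on the scaling was thus not tested. Mcm10, which loads the helicase's partners, had 71.6, 65.1 and 74.0 in cKO retinas at ZT6 against 156, 201 and 171 in control, and 47.1, 111 and 114 in cKO at ZT20 against 309, 278 and 216 in control. It fell by 1.15 ± 0.25 and 1.47 ± 0.25 (limma adjusted p = 0.00791 and 0.00221). Mcm10 passed the filter on signal through control pools alone, as no cKO retina exceeded 114 units, which limits its calls. Rfc4, of the clamp loader, fell at both times (-0.63 ± 0.13 and -0.45 ± 0.13), the primase Prim1 at ZT6 (-0.60 ± 0.12) and the licensing factor Cdt1 at ZT20 (-0.62 ± 0.16). Pcna (0.15 and -0.03) was not called.

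Of the 6 tested mitosis genes 1 rose and 1 fell at ZT6. Among all genes 9.47% were higher and 7.12% lower at ZT6, and 5.65% and 4.68% at ZT20. Mad2l1 fell (-0.47 ± 0.14, and -0.59 ± 0.14 at ZT20), and the kinetochore motor Cenpe rose (1.15 ± 0.25), with 219.9, 163 and 163 in cKO against 65.1, 77.5 and 75.2 in control at ZT6. Cenpe passed the filter on signal through cKO pools alone, as no control retina exceeded 77.5 units. Gadd45b, a stress-induced gene of the checkpoint list, had 1125, 1098 and 1199 in cKO at ZT6 against 232, 162 and 248 in control, and 976, 700.2 and 874 in cKO at ZT20 against 234, 144 and 222 in control. Its rises of 2.35 ± 0.19 and 2.02 ± 0.19 were the largest of the lists here, and the other 15 tested checkpoint genes were not called. Of 7 tested division markers 0 passed at ZT6 and 1, Cks1b (0.52 ± 0.14), at ZT20. Mki67 stayed at or under 41.1 units in cKO retinas. Without cKO ZT20 pools 2 and 3, Mcm10 (-2.15), Gadd45b (2.23) and Cks1b (0.74) passed at ZT20, and Rfc4 (-0.57, adjusted p = 0.104), Cdt1 (-0.52, adjusted p = 0.235) and Mad2l1 (-0.51, adjusted p = 0.17) did not.

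Marker genes of several cell types differed in the cKO retina too. All 6 tested markers of reactive glia were higher in cKO at both times, with sums of 11554 to 13849 in cKO and 1791 to 2481 in control at ZT6, and 10460 to 16586 in cKO and 1769 to 2356 in control at ZT20. All 8 tested microglia and macrophage markers were higher (7106 to 9638 in cKO and 2099 to 3087 in control at ZT6, 7357 to 10636 and 2202 to 2934 at ZT20). Müller glia markers were higher in 5 of 8 at ZT6 and 2 of 8 at ZT20. Cone markers were lower in 5 of 7 at both times, and 1, the opsin gene Opn1sw, was higher at ZT6 (0.35 ± 0.08). Their sums were 17946 to 19424 in cKO and 24154 to 26565 in control at ZT6, 14663 to 19125 and 25781 to 28723 at ZT20. Rod markers were lower in 3 of 8 and 4 of 8 (59264 to 65305 in cKO and 68631 to 69278 in control at ZT6, 58516 to 64331 and 71183 to 73669 at ZT20).

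The log2 ratio of 3′ to 5′ Actb probe sets averaged 1.18 in cKO and 1.40 in control retinas at ZT6, and 1.3 in cKO and 1.65 in control at ZT20. The part of these cell types and of the RNA in the retinal changes was not tested.

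Between night and day the retina showed little. In cKO retinas limma called 0 of 73 genes at ZT20 against ZT6, where 0.332% of all genes were called, and 4 of the 73 had an unadjusted p under 0.05. In control retinas it called 1, Cdk2ap2, 1.37%, where 1.23% of all genes were called and 0.672% were higher. Cdk2ap2 had 3521, 3009 and 3381 at ZT20 against 2566, 2139.8 and 2329 at ZT6 (0.49 ± 0.10, adjusted p = 0.0371), without overlap, and the call was lost without any 1 of the 6 pools (adjusted p up to 0.13). E2f3 (0.09 in cKO, 0.20 in control), Cdk6 (-0.02 and -0.06) and Cdkn1a (0.12 and -0.03), which changed at night in the gland, were not called. The difference between the tissues in the night change was not tested.

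The knockout effect was compared between tissues directly, as the cKO minus control difference, mean of both times, in the retina minus that in the pineal gland. Of 82 genes 13 passed, 5 more positive and 8 more negative in the retina, 15.9%, where 15.9% of all 12928 genes were called (8.68% more positive and 7.22% more negative). E2f6 (1.16 ± 0.11, limma adjusted p = 9.29e-08), Bub1b (-1.0 ± 0.16, adjusted p = 0.000136) and Cdc42ep3 (-0.73 ± 0.13, adjusted p = 0.000531) had the smallest adjusted p. Ccna2 (-0.59 ± 0.14), Mcm2 (-0.61 ± 0.14) and Mcm8 (-0.60 ± 0.14) were also more negative in the retina, and Cdkn1a (0.57 ± 0.17) more positive. E2f1 (-0.13), E2f3 (-0.14), Cdk4 (0.12) and Cdk6 (0.27) were not called. The balance depends on the scaling, with 17 more positive and 2 more negative on the values as deposited (median of all genes 0.27) and 2 and 32 after median centring (-0.25).

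**Figure D5:**
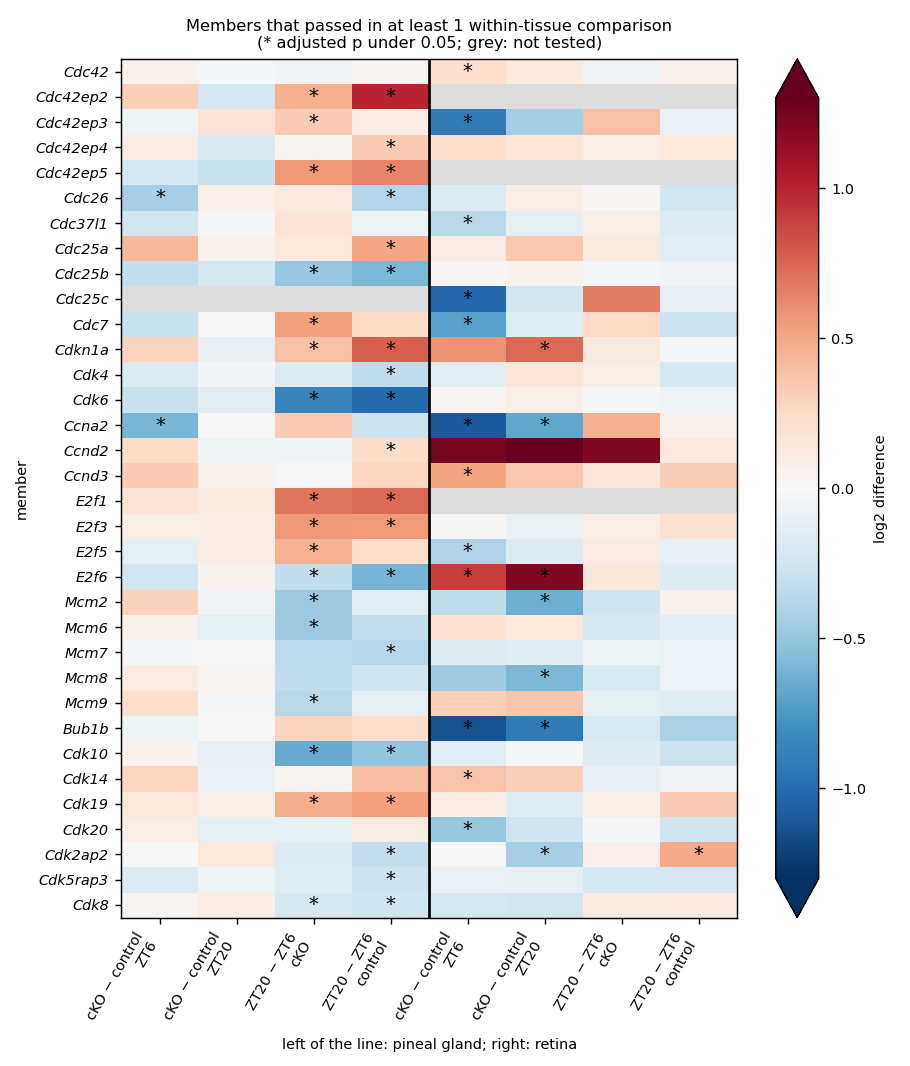
Log2 differences (colour, clipped at 1.3 either way) of the 34 genes called in at least 1 comparison within a tissue, with pineal comparisons left of the line and retinal ones right; a star marks an adjusted p under 0.05 and grey a gene not tested. Stars stand mainly in the night columns of the pineal gland and in the genotype columns of the retina.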

How the data were processed

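RNA of 24 pools of pineal glands or retinas was measured on 1-colour arrays. The deposited values are linear intensities of 45101 probe sets. The submitters' processing notes name GCOS, without a version, and the scaling of the deposited intensities and any detection calls are not given in the sources used here. Since trimmed mean intensities differed between arrays (549 to 722 in the pineal gland, 535 to 765 in the retina), values were quantile-normalised over all 24 arrays and taken as log2(signal + 16). Under R 4.3.3, limma 3.58.1 estimated the differences (lmFit, and eBayes with a variance trend), on the 12 arrays of a tissue or on 24 across tissues, for 1 probe set per gene, after a filter at the median signal on at least 3 arrays. Two-sided p-values were adjusted by the Benjamini-Hochberg method over all genes tested, in each of 12 comparisons. The number of arrays limits the precision. By the platform annotation 34945 probe sets had 1 symbol, 932 several and 9160 none.

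Group and pool number came from the sample titles. Same-numbered pools deviated together only between cKO and control pineal glands at ZT6 (r = 0.213, 0.363 and 0.346), so a fit with the pool number as a block is given beside that result. The rule for genes named in the text was the largest called changes without overlap between pools, up to 8 in each direction of a comparison, a fixed set of main regulators (among them Ccnd1, Ccna2, Cdk4, Cdkn1b, E2f3, Mcm2 and Aurka), and up to 3 called genes of each list around the cycle. Smaller changes named beside them were chosen after their values were seen. The genes and lists were chosen with earlier results of these data known. The fits were tested on simulated data. Alternatives were the values as deposited, median centring, quantile normalisation within each tissue, pseudocounts of 1 and 64, no filter, no variance trend, no cross-hybridising (_x_at) sets, the mean of a gene's probe sets, the pool block, and leaving out pools.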

Additional observations from a re-analysis of the deposited data

Results flagged for a closer look

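The cKO minus control difference (log2, mean of both times) differed between the retina and the pineal gland in 13 genes, by limma's test of that difference itself with 3 pools in each of 8 groups. In each value the pineal difference is subtracted from the retinal one. It was more positive in the retina for Ccnd2 (1.70, adjusted p = 0.0379), E2f6 (1.16, adjusted p = 9.29e-08), Cdkn1a (0.57, adjusted p = 0.0249), Cdc14a (0.34, adjusted p = 0.0232) and Cdc42 (0.16, adjusted p = 0.0193).

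It was more negative in the retina for Bub1b (-1.0, adjusted p = 0.000136), Cdc42ep3 (-0.73, adjusted p = 0.000531), Mcm2 (-0.61, adjusted p = 0.00446), Mcm8 (-0.60, adjusted p = 0.00429) and Ccna2 (-0.59, adjusted p = 0.00636). Smaller ones were those of Cdk8 (-0.30, adjusted p = 0.00308), Cdk5r2 (-0.29, adjusted p = 0.011) and Cdk2ap2 (-0.28, adjusted p = 0.0296). Without cKO ZT20 pools 2 and 3, Ccnd2 (1.90, adjusted p = 0.0957), Cdc14a (0.38, adjusted p = 0.0634) and Mcm2 (-0.49, adjusted p = 0.0894) did not pass. Leaving out single pools ended the Ccnd2 call in 17 cases, that of Cdk2ap2 in 8, that of Cdkn1a in 4 and that of Cdc14a in 1. The choroid plexus marker Folr1 was high in the same control retinas as Ccnd2, and its part in the Ccnd2 signal was not tested.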

How the results depend on the processing

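Of the values of single genes under the alternatives, 6178 kept their side of the threshold, 313 no longer passed, 45 newly passed and 7 reversed. A change of sign was counted as reversed only where the gene passed in the main fit or in the alternative. Changes of sign in genes that passed in neither are among the 6178. Counts of calls moved as follows. In pineal cKO against control at ZT6, 2 calls became 1 on the values as deposited, 34 after median centring, 1 without the filter, 1 with the mean of a gene's probe sets, 4 with the replicate block and 0 without ZT6 pool 3 of both genotypes, which was chosen after seeing the data. At ZT20, 0 became 1 with the mean of probe sets. The 19 night calls of control glands became 8 as deposited and 12 after median centring. The 17 of cKO glands became 8 as deposited, 9 with the mean of probe sets and 9 without cKO ZT20 pools 2 and 3. In retinal cKO against control, 12 calls at ZT6 became 22 as deposited, and 7 at ZT20 became 3 as deposited and 3 without those pools. The single night call of control retinas became 0 as deposited, without the variance trend, with the mean of probe sets and with the block. The 13 calls between the tissues' cKO effects became 34 after median centring. The causes were not tested.

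Leaving out single pools gave 0 to 1 calls in pineal cKO against control at ZT6 and 0 at ZT20, 16 to 21 at night in control and 9 to 18 in cKO glands, 7 to 13 and 2 to 7 in retinal cKO against control at ZT6 and ZT20, 57 to 63 between tissues, 10 to 16 between cKO effects, and 0 in both interactions and both night comparisons of the retina. With the replicate block the counts elsewhere were 20 and 17 at night in control and cKO glands, 10 and 6 in cKO retinas at ZT6 and ZT20, 60 between tissues and 14 between cKO effects.

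Reversed values were Cdc26 in pineal cKO against control at ZT6 with the mean of probe sets (0.0566), Cdc42 between cKO effects after median centring (-0.24), and Cdc37l1 in retina vs pineal control as deposited (-0.0802) and with the mean of probe sets (-0.14), in the same comparison Cdk11b as deposited (-0.0069), Cdc26 (0.10) and Cdk7 (-0.13) with the mean of probe sets. E2f3, E2f6 and Mcm9 no longer passed at night in cKO glands with the mean of probe sets (0.34, -0.15 and -0.02). Ccna2 at ZT20 (-0.54) and Cdc25c at ZT6 (-0.71) no longer passed in cKO retinas as deposited. Bub1b and E2f6 in cKO retinas at both times, E2f1 and Cdk6 at night in glands of both genotypes, passed in every alternative run. Signals near or under the array median, those of several mitosis genes among them, limit what can be compared.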
